A study of Homo sapiens with 6 samples.

Results

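Prostaglandin synthesis and the reacylation of lysophosphatidylcholine are represented here by 10 genes: the cytosolic phospholipase A2 gene PLA2G4A, the cyclooxygenase genes PTGS1 and PTGS2, the prostaglandin E synthase genes PTGES, PTGES2 and PTGES3, and the lysophosphatidylcholine acyltransferase genes LPCAT1, LPCAT2, LPCAT3 and LPCAT4. Members were found by an exact match of the gene symbol, which gave 10 of the 60624 genes in the table, and all 10 were among the 16652 genes with enough reads to be tested. PolyA RNA had been sequenced from A549, an established line derived from lung cancer. The groups were 3 libraries of parental cells and 3 libraries of A549 cells in which RAVER1, the gene of an RNA-binding protein, had been deleted with CRISPR/Cas9. The knockout titles share the tag KO2, and the labels do not say whether it marks 1 clone, so p-values reflect how far these libraries differ among themselves, and independently made lines were not compared.

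Cytosolic phospholipase A2 cuts arachidonic acid out of membrane phospholipids and leaves a lysophospholipid behind. The cyclooxygenases turn arachidonic acid into prostaglandin H2, and the prostaglandin E synthases turn that into prostaglandin E2, a lipid messenger made by many epithelial cancers. The LPCAT enzymes put a fatty acid back on the lysophospholipid, which closes the cycle of membrane remodelling, and LPCAT1 and LPCAT2 can also make platelet activating factor.

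Relative to parental cells, RAVER1-deleted cells held 11.3-fold more LPCAT2 RNA and 1.45-fold more PTGES RNA, while PTGS2 RNA stood at 0.447 of its parental level. PLA2G4A, LPCAT3, LPCAT1 and LPCAT4 also fell, by smaller amounts. PTGS1, PTGES2 and PTGES3 did not pass the test. By edgeR's quasi-likelihood test at an adjusted p of 0.05, 7 of 10 members were called, against 41.4% of all tested genes. Of these, 2 were higher, against 21.3% of all tested genes, and 5 were lower, against 20.1%. The parental and knockout libraries did not overlap for 6 of 10 members, against 50.2% of all tested genes. The median log2 fold change was -0.12 over the members and 0.0019 over all tested genes. Without regard to sign, the medians were 0.27 for the members and 0.19 for all tested genes. The choice of members was made with earlier results of these data known, so these counts and medians are given as a description. With scaling factors computed without the genes of chromosome 2, whose 1125 tested genes moved upward by a median of 0.42 on the log2 scale, 3 members and not 5 were lower. No member lies on chromosome 2.

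**Figure D1:**
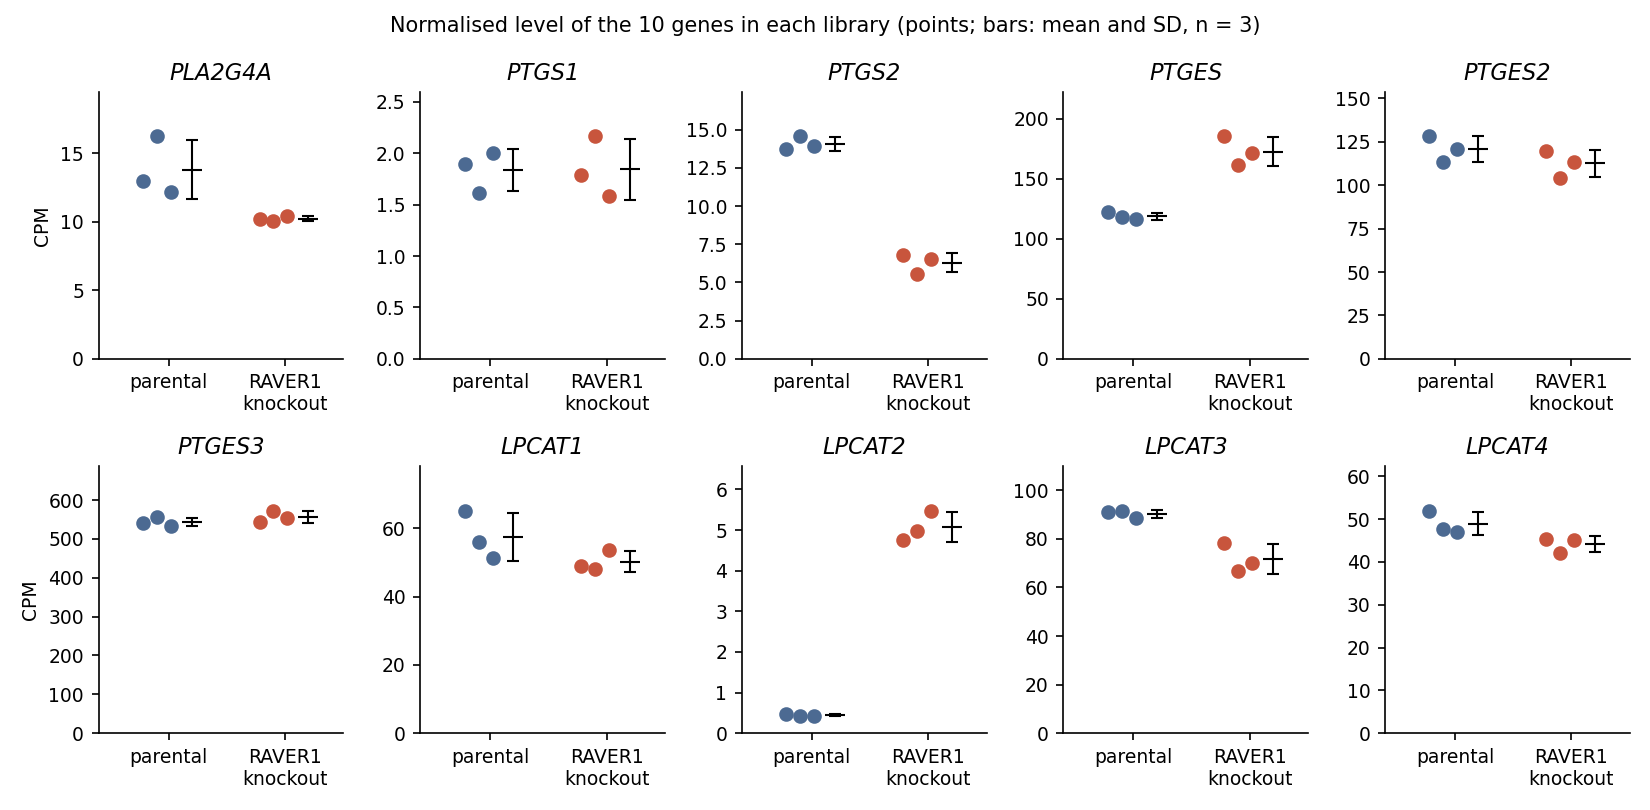
Reads per 1000000 counted reads (CPM, linear axes that start at 0 and have a scale of their own for each gene) in the 3 parental and 3 RAVER1-deleted libraries, 1 point per library, with bars for the mean and SD. LPCAT2 averages 0.442 CPM in parental and 5.07 CPM in RAVER1-deleted libraries, and the PTGS2 groups lie apart at 14.1 and 6.29 CPM.

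The targeted gene matched the labels: RAVER1 had 1996 to 2510 reads in the parental libraries and 79 to 112 in the knockout libraries, a log2 fold change of -4.67 (SE 0.079, edgeR adjusted p 1.24e-18). Total counts ran from 29811747 to 39910127 per library. All 5 markers of the lung epithelial line were tested, and their summed level was 6612 to 7247 CPM in parental and 3560 to 4116 CPM in knockout libraries. KRT8 and KRT18 made up most of that sum. All 5 were called lower by edgeR, with CDH1 at 0.217, KRT19 at 0.270, EPCAM at 0.307, KRT18 at 0.520 and KRT8 at 0.603 of the parental level. Of 6 alveolar markers 1 was tested, and SFTPA1 and SFTPA2 had no reads. Of 8 leukocyte markers 3 were tested, with sums of 10.03 to 11.7 and 9.55 to 10.6 CPM, and CD3E and TYROBP had no reads. Of 6 mast cell and platelet markers 1 was tested, with sums of 1.65 to 2.39 and 2.11 to 2.77 CPM, and KIT, CPA3, PF4 and PPBP had no reads. None of the 5 endothelial markers was tested. Of 6 fibroblast markers 2 were tested, with sums of 46.7 to 49.8 and 64.4 to 68.4 CPM, and DCN had no reads. COL1A1 made up nearly all of that sum, with means of 47.7 and 65.3 CPM, and COL3A1 averaged 0.143 and 0.779 CPM. The part of these markers in the results was not tested, and in bulk libraries fewer cells of a type and less RNA per cell cannot be told apart.

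Promoter sequences are shown for the phospholipase, the inducible cyclooxygenase and the prostaglandin E synthase gene that changed, because PTGS2 and PTGES moved in opposite directions and PLA2G4A is the neighbour of PTGS2. Each is the 250 bases before the start site in the RefSeq table of GRCh38.p14, 5′ to 3′ on the gene's strand. They are chr1:186680424-186680673 on the minus strand for PTGS2, chr9:129753043-129753292 on the minus strand for PTGES, and chr1:186828699-186828948 on the plus strand for PLA2G4A. Capitals mark, in PTGS2, a C/EBP match, the cyclic AMP response element core and the TATA box, and in PTGES an EGR1 match.
PTGS2: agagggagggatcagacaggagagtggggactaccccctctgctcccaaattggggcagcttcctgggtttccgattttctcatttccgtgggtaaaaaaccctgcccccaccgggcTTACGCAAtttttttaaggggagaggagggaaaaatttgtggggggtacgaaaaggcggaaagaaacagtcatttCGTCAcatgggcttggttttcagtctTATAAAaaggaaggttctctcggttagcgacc
PTGES: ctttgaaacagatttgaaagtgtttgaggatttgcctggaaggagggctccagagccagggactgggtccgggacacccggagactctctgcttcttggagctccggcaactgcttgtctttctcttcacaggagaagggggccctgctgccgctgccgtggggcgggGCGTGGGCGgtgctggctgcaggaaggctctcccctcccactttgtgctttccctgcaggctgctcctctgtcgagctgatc
PLA2G4A: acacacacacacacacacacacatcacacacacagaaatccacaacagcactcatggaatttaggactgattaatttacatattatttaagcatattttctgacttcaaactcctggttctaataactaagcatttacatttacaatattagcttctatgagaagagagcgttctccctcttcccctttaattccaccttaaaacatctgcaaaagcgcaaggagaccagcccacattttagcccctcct
The motifs were searched on both strands of all 35116 promoter windows. TATAAA occurs in 10.7% of windows, TTNNGCAA (C/EBP) in 9.05%, TGACG (the cyclic AMP response element core) in 21.2% and GCGNGGGCG (EGR1) in 8.41%. GGGCGG (the GC box) occurs in 42.6%, TGANTCA (AP-1) in 6.57% and CAGGTG (the E-box of SNAI and ZEB factors) in 17.5%. The NF-kB motif, searched as GGGRNNYYCC, occurs in 9.96%, where R is A or G, Y is C or T and N is any base. In PTGS2 the TATA box spans -32 to -27, the response element core, read as CGTCA, spans -58 to -54, and the C/EBP match spans -133 to -126. In PTGES the EGR1 match spans -82 to -74, and GC boxes span -89 to -84 and -78 to -73, the latter overlapping the EGR1 match. None of these motifs was found in the PLA2G4A window. The GC content was 50.4% for PTGS2, 61.2% for PTGES and 38.8% for PLA2G4A, against a median of 58% over all windows. A match describes letters and not a bound site. No match speaks only of this window and of the exact letters searched, and a site written otherwise would be missed. The table matched 9 of the 10 members and held no entry for LPCAT2, so the promoter of that gene was not searched.

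The first step of the pathway is the release of arachidonic acid. PLA2G4A, on chromosome 1 at 186828953 to 186988981 on the plus strand (hg38), was at 13.01, 16.2 and 12.2 CPM in parental replicates 1 to 3 and at 10.2, 10.1 and 10.4 CPM in knockout replicates 1 to 3. All 3 knockout libraries lay below all 3 parental libraries, and the parental libraries were the more spread. Parental cells averaged 13.8 ± 2.13 CPM (SD, n = 3) and RAVER1-deleted cells 10.2 ± 0.184 CPM (SD, n = 3). Its log2 fold change was -0.43 (SE 0.096, 95% interval -0.63 to -0.23, edgeR adjusted p 0.00127).

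The cyclooxygenases differed from each other. PTGS2, the inducible enzyme, lies on chromosome 1 at 186671791 to 186680427 on the minus strand, 148525 bases from PLA2G4A and next to it among the tested genes. Its level was 13.7, 14.5 and 13.9 CPM in the parental and 6.78, 5.58 and 6.51 CPM in the knockout libraries. The groups were far apart, and the highest knockout library lay below the lowest parental one. The mean fell from 14.1 ± 0.437 to 6.29 ± 0.628 CPM (SD, n = 3 each). On the log2 scale the change was -1.16 (SE 0.089, 95% interval -1.35 to -0.98, edgeR adjusted p 4.11e-09), and 5.3% of all tested genes had a larger absolute change.

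PTGS1, the constitutive cyclooxygenase, lies on chromosome 9 at 122370530 to 122395703 on the plus strand. Its level was 1.90, 1.61 and 2 CPM in the parental and 1.78, 2.16 and 1.58 CPM in the knockout libraries, and the groups overlapped. The log2 fold change was 0.012 (95% interval -0.35 to 0.37, edgeR adjusted p 0.965), and its sign turned with upper-quartile scaling, to -0.021. The interval still allows changes of either direction. Per kilobase of gene length, the summed level of both cyclooxygenases came to 2.99 ± 0.0549 CPM in the parental group and to 1.51 ± 0.0811 CPM in the RAVER1-deleted group (SD, n = 3 each). PTGS2 made up 89.4% ± 1.29 of that sum in parental and 78.8% ± 4.29 in knockout cells (SD, n = 3 each), a difference of -10.5 percentage points. All knockout libraries lay below all parental ones, and the two-sided exact permutation test gave p = 0.1, the smallest that 3 against 3 libraries can give.

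**Figure D2:**
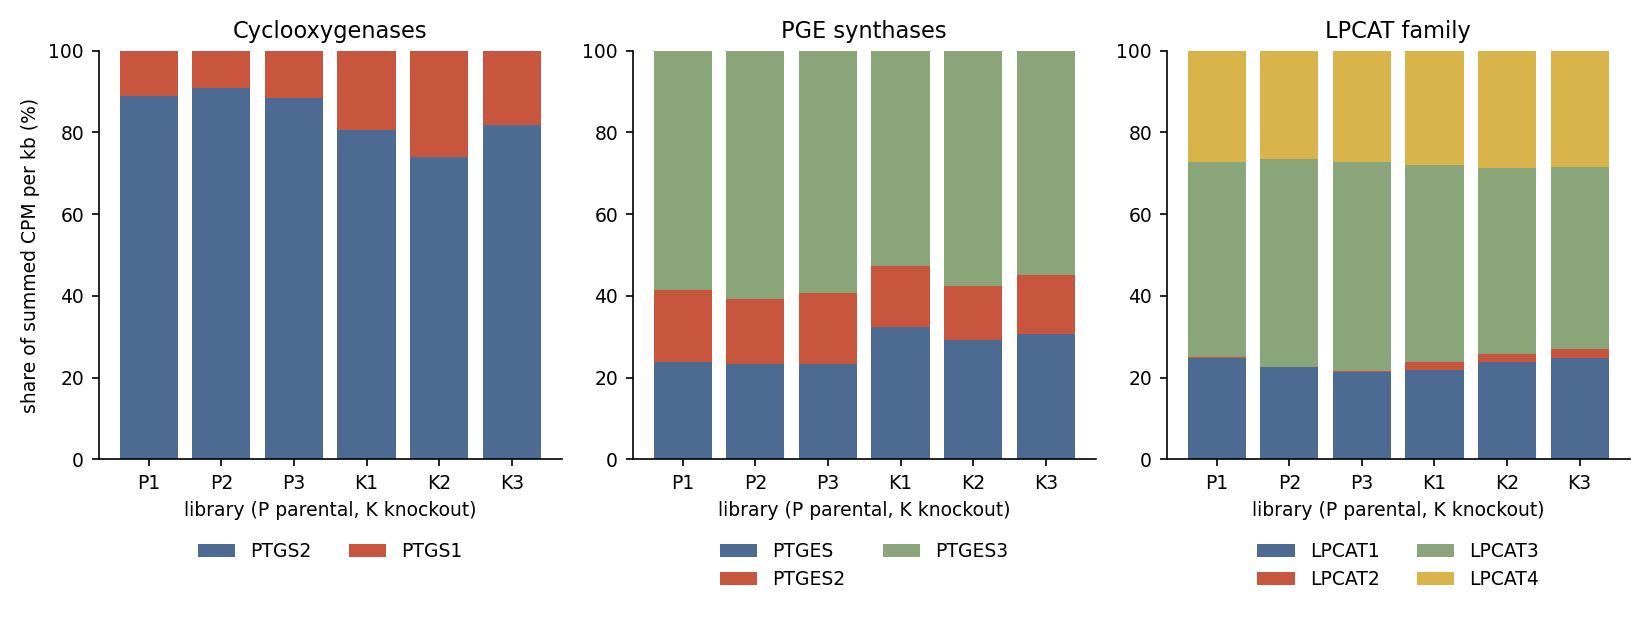
Share of each isoenzyme in the summed CPM per kilobase of its class, in percent, as stacked bars for parental (P) and knockout (K) libraries. The PTGS2 share is 89.4% in parental and 78.8% in RAVER1-deleted cells, and the PTGES share is 23.4% and 30.7%.

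Of the prostaglandin E synthases, PTGES is the inducible microsomal enzyme that works with PTGS2 in inflamed and cancerous tissue. It lies on chromosome 9 at 129738331 to 129753047 on the minus strand. Its level was 122, 118 and 117 CPM in the parental and 185, 161 and 171 CPM in the knockout libraries, and every knockout library lay above every parental one. The mean rose from 119 ± 3.003 to 173 ± 12.1 CPM (SD, n = 3 each). Its log2 fold change was 0.54 (SE 0.050, 95% interval 0.43 to 0.64, edgeR adjusted p 5.61e-08), opposite in direction to that of PTGS2.

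PTGES2, a membrane-associated synthase on chromosome 9 at 128120693 to 128128462 on the minus strand, was at 128, 113 and 121 CPM in the parental and 120, 104 and 114 CPM in the knockout libraries. The groups overlapped, and the log2 fold change was -0.10 (95% interval -0.22 to 0.014, edgeR adjusted p 0.154). Without knockout replicate 1 it passed the threshold, with a log2 fold change of -0.15 (edgeR adjusted p 0.0173). The change was smaller without parental replicate 1 (-0.058, edgeR adjusted p 0.497) or knockout replicate 2 (-0.047, edgeR adjusted p 0.554). PTGES3, the cytosolic synthase that is also the HSP90 co-chaperone p23, lies on chromosome 12 at 56663341 to 56688408 on the minus strand. It was at 542, 555 and 533 CPM in the parental and 543, 572 and 554 CPM in the knockout libraries, which overlapped. Its log2 fold change was 0.035 (95% interval -0.048 to 0.12, edgeR adjusted p 0.519). PTGES3 has processed pseudogenes, and reads of near-identical copies may have been split between them. The copy PTGES3P1 averaged 11.2 CPM in the parental and 13.4 CPM in the RAVER1-deleted group (log2 fold change 0.27, edgeR adjusted p 0.0183). The other tested copies did not pass, PTGES3P3 at -0.073 (edgeR adjusted p 0.646) and PTGES3P4 at 0.27 (edgeR adjusted p 0.329).

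PTGES took 23.4% ± 0.260 of the summed length-scaled level of the 3 synthases in parental and 30.7% ± 1.63 in knockout cells (SD, n = 3 each), a difference of 7.23 percentage points. The share of PTGES3 was 59.6% and 55.1%, and that of PTGES2 17.0% and 14.3%. Each of these 3 shares lay apart between the groups, with an exact permutation p of 0.1, the smallest possible. They are not separate results, because shares within a class add up to the whole and a higher PTGES share lowers the others. The levels of PTGES2 and PTGES3 themselves did not pass the edgeR test. The summed level was 268 ± 4.24 CPM per kilobase in parental and 297 ± 5.04 in knockout cells (SD, n = 3 each).

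LPCAT2, which reacylates lysophosphatidylcholine and makes platelet activating factor, had the largest change of the 10 genes. It lies on chromosome 16 at 55508998 to 55586670 on the plus strand. It had 16, 13 and 14 reads in the parental libraries and 184, 198 and 170 reads in the knockout libraries. In CPM these were 0.467, 0.428 and 0.431 against 4.76, 4.98 and 5.48, with no overlap. The mean rose from 0.442 ± 0.0217 to 5.07 ± 0.368 CPM (SD, n = 3 each). Its log2 fold change was 3.50 (SE 0.17, 95% interval 3.14 to 3.87, edgeR adjusted p 8.56e-12), and 0.564% of all tested genes had a larger absolute change.

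LPCAT3, which favours polyunsaturated fatty acids such as arachidonic acid, lies on chromosome 12 at 6976186 to 7018510 on the minus strand. It was at 91.1, 91.6 and 88.5 CPM in the parental and 78.4, 66.6 and 69.9 CPM in the knockout libraries, which did not overlap. The mean fell from 90.4 ± 1.68 to 71.6 ± 6.06 CPM (SD, n = 3 each). On the log2 scale the change was -0.33 (SE 0.055, 95% interval -0.45 to -0.22, edgeR adjusted p 7.28e-05). LPCAT3 shares 3100 of its 4725 exonic bases with EMG1 on the opposite strand. The strand setting of the counting is not given in the sources used here, so reads of the 2 genes may not have been told apart. EMG1 itself had a log2 fold change of 0.00097 (edgeR adjusted p 0.991).

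LPCAT1, an enzyme of lung surfactant lipid synthesis, lies on chromosome 5 at 1456480 to 1523977 on the minus strand. It was at 65.2, 56.0 and 51.3 CPM in the parental and 49.1, 48.0 and 53.8 CPM in the knockout libraries, and knockout replicate 3 lay above parental replicate 3. On the log2 scale the change was -0.20 (SE 0.072, 95% interval -0.35 to -0.043, edgeR adjusted p 0.0373). The call was lost without parental replicate 1 (log2 fold change -0.094, edgeR adjusted p 0.301) and without knockout replicate 2 (-0.16, edgeR adjusted p 0.13).

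LPCAT4 lies on chromosome 15 at 34358618 to 34367278 on the minus strand. It was at 52.0, 47.6 and 47.1 CPM in the parental and 45.4, 42.1 and 45.0 CPM in the knockout libraries, which did not overlap. The log2 fold change was -0.15 (SE 0.057, 95% interval -0.27 to -0.027, edgeR adjusted p 0.046). The call was lost with DESeq2 (adjusted p 0.0535) and without parental replicate 1 (edgeR adjusted p 0.241), parental replicate 2 (0.0537), knockout replicate 2 (0.176) or knockout replicate 3 (0.0826).

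LPCAT2 made up 0.156% of the summed length-scaled level of the 4 LPCAT genes in parental and 2.08% in knockout cells. LPCAT3 remained the highest, at 49.96% and 46.1%, with LPCAT4 at 26.9% and 28.4% and LPCAT1 at 22.96% and 23.5%. The exact permutation p was 0.1 for LPCAT2 and LPCAT4, 0.2 for LPCAT3 and 0.8 for LPCAT1, and 0.1 is the smallest possible. These shares too add up to the whole and are not separate results. The share of LPCAT4 was higher although its own level was called lower (log2 fold change -0.15). The summed level was 38.6 ± 1.89 CPM per kilobase in parental and 33.1 ± 1.72 in knockout cells (SD, n = 3 each).

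**Figure D3:**
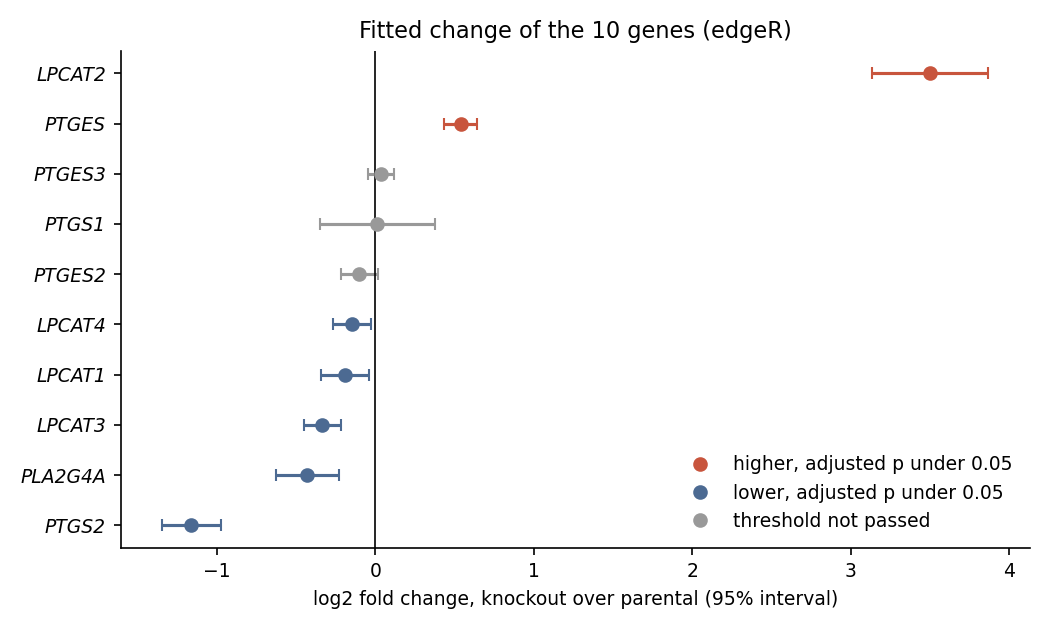
Log2 fold change of each of the 10 genes, RAVER1-deleted over parental, with a 95% interval derived from the edgeR test, coloured by call. LPCAT2 stands at 3.50 and PTGS2 at -1.16, and the intervals of PTGS1, PTGES2 and PTGES3 include 0.

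Ordered by level per length, the parental means in CPM per kilobase were 160 for PTGES3, 62.9 for PTGES, 45.5 for PTGES2, 19.3 for LPCAT3, 10.4 for LPCAT4, 8.88 for LPCAT1, 4.80 for PLA2G4A, 2.67 for PTGS2, 0.318 for PTGS1 and 0.0600 for LPCAT2. Among neighbours in this order, LPCAT4 and LPCAT1 overlapped between parental libraries. In knockout cells LPCAT2, at 0.689 CPM per kilobase, stood above PTGS1, at 0.318, and the order of the other genes was as in parental cells.

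The nearest tested genes on both sides of LPCAT2 were also higher. MMP2, a gelatinase gene 2306 bases away, had a log2 fold change of 4.17 (edgeR adjusted p 4.6e-16). On the other side CES1P1 had 6.57 (edgeR adjusted p 1.58e-11), CES1 6.73 (edgeR adjusted p 1.12e-16) and GNAO1 1.36 (edgeR adjusted p 0.000295). CES1P1 lies 173895 bases away, and its parental mean was near the floor, at 0.031 CPM against 3.28 CPM in knockout libraries. The start sites of CES1 and GNAO1 lie 324 and 682 kilobases from that of LPCAT2. CES1P1 is a pseudogene of CES1, and reads of the copies may have been split between them. Over the 20 tested genes nearest to LPCAT2 the median was 0.073, with 6 higher and 2 lower, against 21.3% and 20.1% of all tested genes.

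Beside the other members, both neighbours were called in the same direction only for LPCAT4, namely NOP10 (log2 fold change 0.14, edgeR adjusted p 0.0195) and GOLGA8A (0.45, edgeR adjusted p 0.0357), and LPCAT4 itself was lower. PTGS2 lay between PLA2G4A and ODR4 (0.13, edgeR adjusted p 0.223), and beyond PLA2G4A came AL513175.2 (-0.43, edgeR adjusted p 0.284). LCN2, beside PTGES2, fell by 3.93 on the log2 scale (edgeR adjusted p 8.5e-09), and SLC25A25-AS1 on its other side was at 0.22 (edgeR adjusted p 0.121). C1S, whose span overlaps that of LPCAT3 on the opposite strand, rose by 2.04 (edgeR adjusted p 4.32e-15). No exonic bases shared by C1S and LPCAT3 were found in the annotation used. MRRF beside PTGS1 fell by 0.14 (edgeR adjusted p 0.0267), and ATP5F1B beside PTGES3 rose by 0.14 (edgeR adjusted p 0.0121). AL162254.1, PRRX2, TOR1B, NACA, CLPTM1L and SDHAP3 did not pass, with log2 fold changes between -0.14 and 0.26. The median over the 20 nearest tested genes lay between -0.031 and 0.099 for all 10 members.

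**Figure D4:**
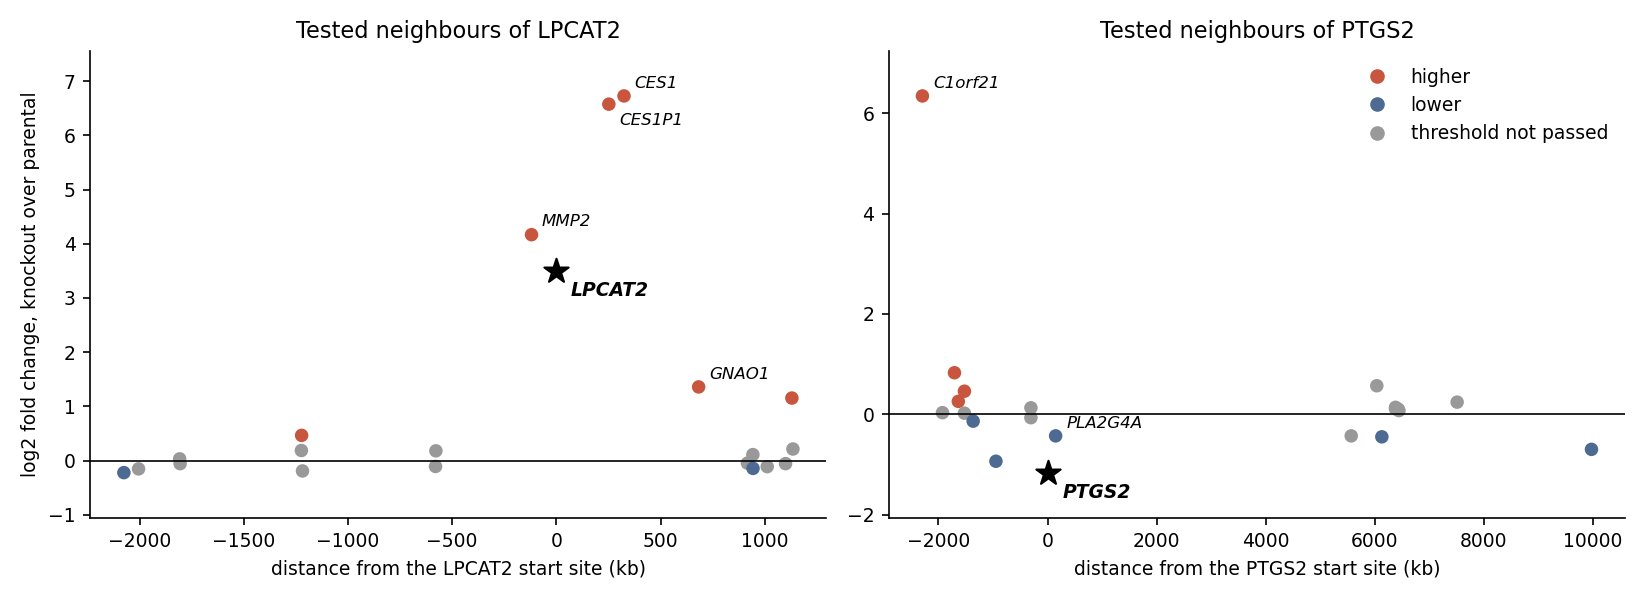
Log2 fold change (RAVER1-deleted over parental) of LPCAT2, PTGS2 (stars) and the 20 tested genes nearest to each, against the distance between start sites in kilobases, with colours for the call. MMP2, CES1P1, CES1 and GNAO1 beside LPCAT2 lie between 1.36 and 6.73, and PLA2G4A beside PTGS2 lies at -0.43.

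In the longest annotated 3′ untranslated region, the AU-rich pentamer ATTTA, which marks short-lived transcripts in many genes, occurred 22 times in PTGS2, 14 times in LPCAT2, 6 times in PTGES3 and 4 times each in PLA2G4A and LPCAT1. The median over 12903 coding genes was 2. Per kilobase the density was 8.59 in PTGS2 and 8.46 in PLA2G4A, and 0.86% and 0.907% of genes had at least that density. In PTGES3, which did not pass, it was 5.28, and in LPCAT2, which was higher, 3.92, reached by 5.29% and 12.7% of genes. For the other members it ran from 0 to 1.03. PTGES and LPCAT3 had 1, PTGS1 had 3, and PTGES2 and LPCAT4 had 0. The number of pentamers is a description of the annotation.

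The surrounding pathways were described from 10 lists with 146 genes in the table, of which 103 were tested, 30 higher and 26 lower, with a median log2 fold change of 0.028. Upper-quartile scaling turned this balance, to 24 higher and 30 lower genes. For this count and for each list below, the shares over all tested genes were 21.3% higher and 20.1% lower, and counts this small are given as a description of each list. Among genes of prostaglandin transport and breakdown, 1 of 5 tested rose and 3 fell. PTGR1, a reductase that inactivates prostaglandins, rose from 220 to 404 CPM (log2 fold change 0.88, edgeR adjusted p 1.9e-12). HPGD, the dehydrogenase that starts prostaglandin breakdown, fell from 248 to 138 CPM (-0.84, edgeR adjusted p 6.12e-11). ABCC4, an efflux pump for prostaglandins, fell by 0.47 on the log2 scale, and PTGR2 by 0.26. Of 4 tested genes of the receptor list 1 rose and 2 fell. PTGER4, a PGE2 receptor, went from 1.702 to 3.05 CPM (0.84), and PTGER2, another, from 0.392 to 0.136 CPM (-1.49). PTGFRN, which is not itself a prostanoid receptor, went from 64.6 to 49.4 CPM (-0.39). Of 5 tested genes of other prostanoid synthases 2 rose and 2 fell, namely CBR1 (0.13), AKR1B1 (0.14), TBXAS1 (-0.75), the thromboxane synthase, and AKR1C3 (-0.38).

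Other lists held genes that release fatty acids from phospholipids (the phospholipase list), or make, activate and release polyunsaturated fatty acids (the supply list). In the phospholipase list 2 of 10 tested genes rose and 2 fell. PLA2G4C, a relative of PLA2G4A, rose by 1.25 and ABHD4 by 0.62, while PLAAT4 fell by 1.94 and PLAAT3 by 0.52, all on the log2 scale. In the supply list 3 of 13 rose and 5 fell, and ACSL5 fell from 0.55 to 0.038 CPM while MGLL, which releases arachidonic acid from monoacylglycerol, fell by 0.44 on the log2 scale. FADS3 (0.44) and ELOVL2 (0.46) rose. FADS2 was lower (-0.18, edgeR adjusted p 0.00841), and FADS1 did not pass (-0.077, edgeR adjusted p 0.108). Of 11 tested genes of the lipoxygenase branch 3 rose, DPEP1 (1.32), ALOX5AP (0.56) and GPX4 (0.15). The count that fell was 0 with edgeR, DESeq2 and limma-voom, while 3 were lower at an unadjusted edgeR p under 0.05.

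Of 12 tested genes of platelet activating factor and ether lipid turnover 4 rose and 2 fell. SELENOI (0.57), AGPS (0.54), FAR1 (0.44) and CHPT1 (0.39) rose, and the receptor gene PTAFR (-1.05) was among those that fell. Of 15 other acyltransferase genes 3 rose and 4 fell, with LCLAT1 (0.50), MBOAT2 (0.48), AGPAT2 (-0.58) and AGPAT3 (-0.24) named. SELENOI, AGPS, LCLAT1 and MBOAT2 lie on chromosome 2, where all 6 tested genes of the lists were higher. Of 13 genes of lysophospholipid hydrolysis and signalling 3 rose and 5 fell: PLPP3 (0.97) and LPAR1 (0.35) rose, and LPAR5 (-2.35) and PLPP2 (-0.49) fell.

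**Figure D5:**
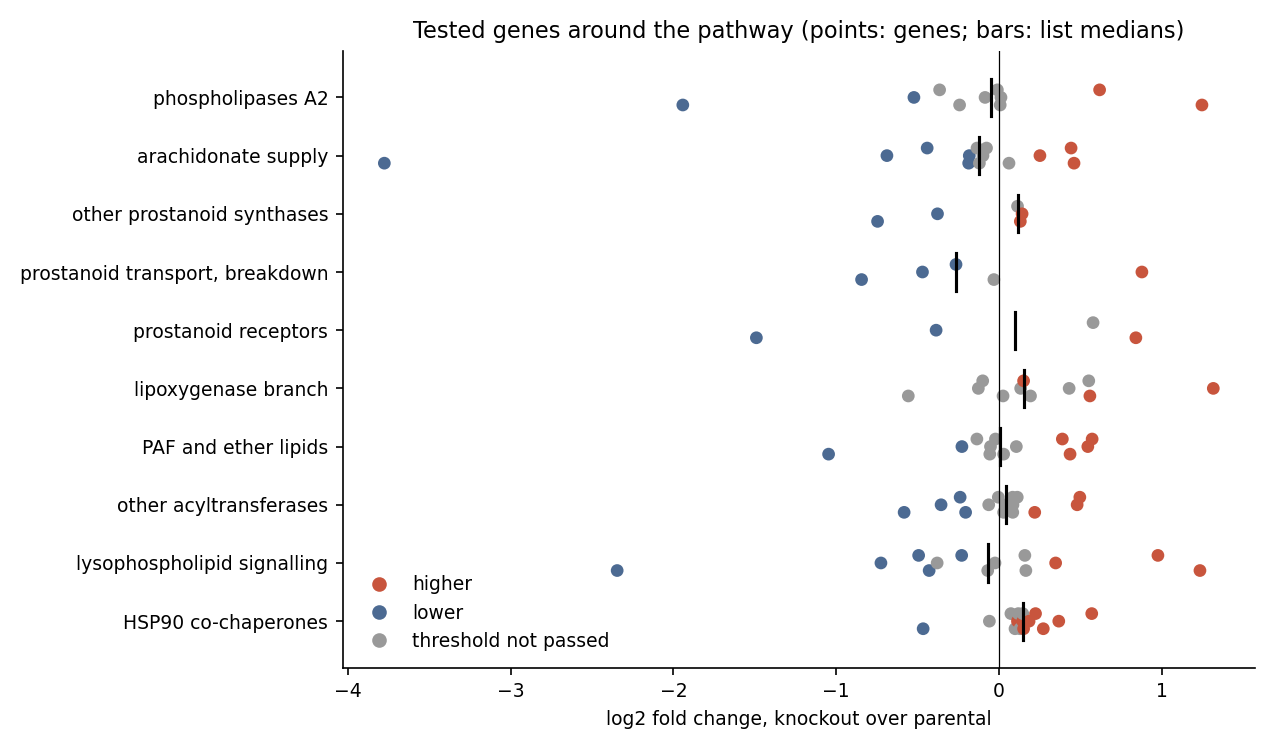
Log2 fold changes (RAVER1-deleted over parental) of the 103 tested genes of the 10 pathway lists, 1 point per gene and 1 row per list, with vertical bars for the list medians. At an adjusted p of 0.05, 30 genes were higher and 26 lower.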

How the data were processed

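PolyA RNA of A549 cells was measured in 3 parental and 3 RAVER1-deleted libraries. TRIzol was used for extraction and the library kit kept strand, per the labels' protocols. Per the submitters' processing notes, the tools were cutadapt 2.8 for trimming, HISAT2 2.1.0 for alignment, SAMtools 1.10 and featureCounts 2.0.0, with the build hg38. The authors deposited raw read counts for each gene in each library, without normalization, beside a gene length in bases. CPM stands for reads in each set of 1000000 counted reads. Which annotation and strand setting the counting used, and what was done with reads matching several genes, is not given in the sources used here. No column was left unused.

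In R 4.3.3, edgeR 4.0.16 kept genes with filterByExpr, scaled libraries with TMM, and compared the groups with the quasi-likelihood F-test with no covariate. P-values were adjusted by Benjamini-Hochberg over the 16652 genes tested, with a threshold of 0.05. The test reports no SE, so each SE was derived as the absolute log2 fold change divided by the square root of F. Intervals used that SE and the t distribution with the degrees of freedom of the test. CPM used TMM-scaled library sizes, and levels between genes were divided by the deposited length in kilobases. Class shares were compared by an exact two-sided permutation test. Positions, exon overlaps and untranslated regions came from GENCODE release 29 on hg38, and promoters from RefSeq. The fits were tested on simulated data. DESeq2 1.42.0, limma-voom 3.58.1, other scalings and filters, stricter thresholds, the replicate block and leaving out each library were tried.

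Members and lists were chosen with earlier results of these data known. All members, RAVER1, up to 4 genes per list with the smallest adjusted p past the threshold, each member's nearest tested genes, and the 5 genes most like LPCAT2 were named. PTAFR, CES1, GNAO1, FADS1, FADS2 and the copies of PTGES3 were named after their values were seen.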

Additional observations from a re-analysis of the deposited data

How the results depend on the processing

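PTGS2 and LPCAT2 kept their direction and their call in every setting run, and PTGES, LPCAT3 and PLA2G4A in all but the setting that asks for at least a 1.5-fold change. Lower members numbered 3 with scaling factors computed without chromosome 2, 3 at an adjusted p under 0.01, 1 with at least a 1.5-fold change, and 3 to 6 when each library was left out in turn; the low value of 3 came without parental replicate 1 or knockout replicate 2. With at least a 1.5-fold change 1 member was higher, as were 7 pathway genes, with 9 lower, and 1165 of all genes, with 1225 lower. LPCAT1 and LPCAT4 lost their calls without the chromosome 2 genes in the scaling (edgeR adjusted p 0.0529 and 0.0632), and LPCAT4 also with no count filter (0.066). The log2 fold change of PTGS1 was -0.021 with upper-quartile scaling and ran from -0.12 to 0.10 when each library was left out. With CPM and no length scaling, the share difference was 5.32 points for PTGES and 2.74 for LPCAT2, and leaving out libraries took that of LPCAT1 from -0.20 to 1.45, with -0.12 without knockout replicate 3. Fewer libraries enter the settings that leave 1 out, and the cause of the other shifts was not tested. Same-numbered libraries did not all deviate together (correlations of 0.22, 0.091 and 0.047, and knockout replicate 3 correlated best with parental replicate 2), so the numbers were not taken as pairs. With the replicate block 4275 genes were higher and 4071 lower, against 3543 and 3343 without it, with 6 members lower, and PTGES2 passed (-0.10, edgeR adjusted p 0.00546). Low depth limits LPCAT2 in parental cells, at 13 to 16 reads per library, and DPEP1 there, at 7 to 13 reads. It also limits PTAFR and LPAR5 in knockout cells, at 10 to 21 and 11 to 20 reads per library. PTGER2 had 11 to 15 reads in parental and 4 to 6 in knockout libraries, and ACSL5 had 16 to 21 and 0 to 2, so both are limited too.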

Other observations

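PTGES3 is also a co-chaperone of HSP90, so the genes of that machinery were described too. Of 15 tested genes of HSP90 and its co-chaperones 8 rose and 1 fell, against 21.3% and 20.1% of all tested genes, with a median log2 fold change of 0.14, while PTGES3 itself did not pass. STIP1, which links HSP70 to HSP90, rose from 619 to 748 CPM (0.27, edgeR adjusted p 1.79e-05), CHORDC1 rose by 0.37 and HSP90AB1 by 0.18. FKBP5, a co-chaperone of steroid receptors, fell by 0.47 on the log2 scale (edgeR adjusted p 2.64e-06).

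The genes whose log2 CPM was most like that of LPCAT2 over the 6 libraries were LAMA3, CCN5, GABRA5, CCN4 and PPP2R2C, each with a Pearson r of 0.999. Their log2 fold changes were 1.44, 1.78, 1.89, 4.82 and 0.44. The 6 points fall into the 2 groups, so r largely follows the difference between groups and is a description. PACERR, a noncoding gene beside PTGS2, had 10, 6 and 2 reads in parental and 3, 3 and 3 reads in knockout libraries and was not tested.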
